A study of Mus musculus with 39 samples.

Results

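Lumbar dorsal root ganglia (DRG) of female mice taken on day 2 after paclitaxel were compared with DRG of vehicle females. These groups were chosen by their sample labels and hold 6 of the 39 libraries of the series, 3 in each group. All mice were C57 and 8 to 12 weeks old. The day 2 females had received 2 intraperitoneal injections of paclitaxel at 3 mg/kg, and days were counted from the second injection. Titles of the paclitaxel libraries give no genotype. The vehicle females, marked WT in their titles, had received vehicle injections and were sampled on day 1, so the groups differ in treatment and also by 1 day of sampling. Ganglia L3 to L5 of both sides had been collected. Whether the libraries of a group stem from different mice is not given in the labels, so the spread behind each p-value may be partly or wholly technical. Day 6 females and day 2 males, also given paclitaxel, with 3 libraries each, are used beside this comparison, while vehicle males were not analysed here. Day 6 males, also given paclitaxel, entered only the fit behind the p-values, with 3 libraries. The titles of the males carry the mark LC, which the labels do not explain.

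The DRG hold the cell bodies of the sensory neurons that carry touch, heat, itch and pain signals from the limb to the spinal cord. Each cell body is wrapped by satellite glia, its axon is ensheathed by Schwann cells, and macrophages, fibroblasts and blood vessels lie between them. Paclitaxel stabilises microtubules, the tracks along which neurons move cargo over their long axons, and it reaches the ganglia more readily than the brain because their vessels are permeable. Sensory neuropathy is its best known side effect on the nervous system.

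The libraries held 22778919, 23761469 and 19049166 reads assigned to genes on day 2, against 25178587, 23277825 and 24772423 in vehicle. A property of the libraries separated the groups. Reads overlapping several genes were 0.303%, 0.294% and 0.296% of uniquely placed reads on day 2, against 0.719% to 0.729% in vehicle. Day 6 females had 0.282% to 0.301%, and day 2 males had 0.711% to 0.731%, so the day 2 and day 6 females form a set apart from the vehicle females and day 2 males. Reads outside annotated genes followed the same division, with 15.1% to 16.31% on day 2 and 17.51% to 17.74% in vehicle. Paclitaxel in females and this difference between library sets cannot be told apart in any comparison of day 2 females with vehicle, and sex and treatment cannot be told apart in the comparison of day 2 males with vehicle females.

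Levels are given as CPM, counts scaled by TMM to a common library size, for replicates 1, 2 and 3 in that order, and changes as log2 ratios with their standard errors. A gene is said to have risen or fallen where its adjusted p was under 0.05 in edgeR's quasi-likelihood test with Benjamini-Hochberg adjustment over 15577 genes. On day 2, 4018 genes rose (25.8%) and 3740 fell (24.0%), 49.8% in all. The counts of rises and falls in each gene list below stand beside these shares. The changes were mostly small: their median size was 0.46, and 1035 genes (6.64%) passed 1 log2. The libraries of the groups did not overlap for 56.6% of all genes. Separate libraries, given below for single genes, were thus the more common case and do not set those genes apart. Exon bases are shared with an overlapping gene for Scn9a, Kcnk3, Kcnd3, Grin1, Gadd45a, Map3k12, Map3k13, Csf1r, Fn1, Gapdh, Manf, Becn1, Myd88, Nusap1, Nr1d1, Dbp and Ckap5, all described below. The strand setting of the counting is not given in the sources used here, so reads of such partners cannot be told apart and these levels are uncertain. Against the same vehicle libraries, 41.5% of genes passed on day 6 in females and 0.315% passed on day 2 in males. Between day 2 and day 6 females, 28 genes passed (0.180%), and between day 2 females and day 2 males 48.9% passed. Comparisons that share vehicle or day 2 libraries are not independent of each other.

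The direction of change ran with transcript length. With genes in 5 classes of equal number by longest transcript, those in the shortest class (67 to 1962 bases) had a median change of 0.24 on day 2, and 41.6% of them rose while 11.1% fell. Genes in the longest class (5229 to 123179 bases) had a median of -0.30, with 7.66% rising and 51.0% falling. Day 6 females had medians of 0.18 in the shortest and -0.14 in the longest class, and day 2 males 0.02 and 0.03. Genes of low GC content had lower changes, from a median of -0.16 in the lowest of 5 GC classes to 0.22 in the highest. With the trend on length and GC taken out of each library, 44.8% of 15419 genes still passed, 21.8% higher and 23.0% lower. This alternative was added after the trend had been seen, and 11 genes named below that passed on day 2 did not pass with it, namely Scn11a, Nppb, Vgf, Ntrk3, Jun, Ecel1, Mapk10, Apoe, Cxcl12, Myd88 and Cry1.

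**Figure D1:**
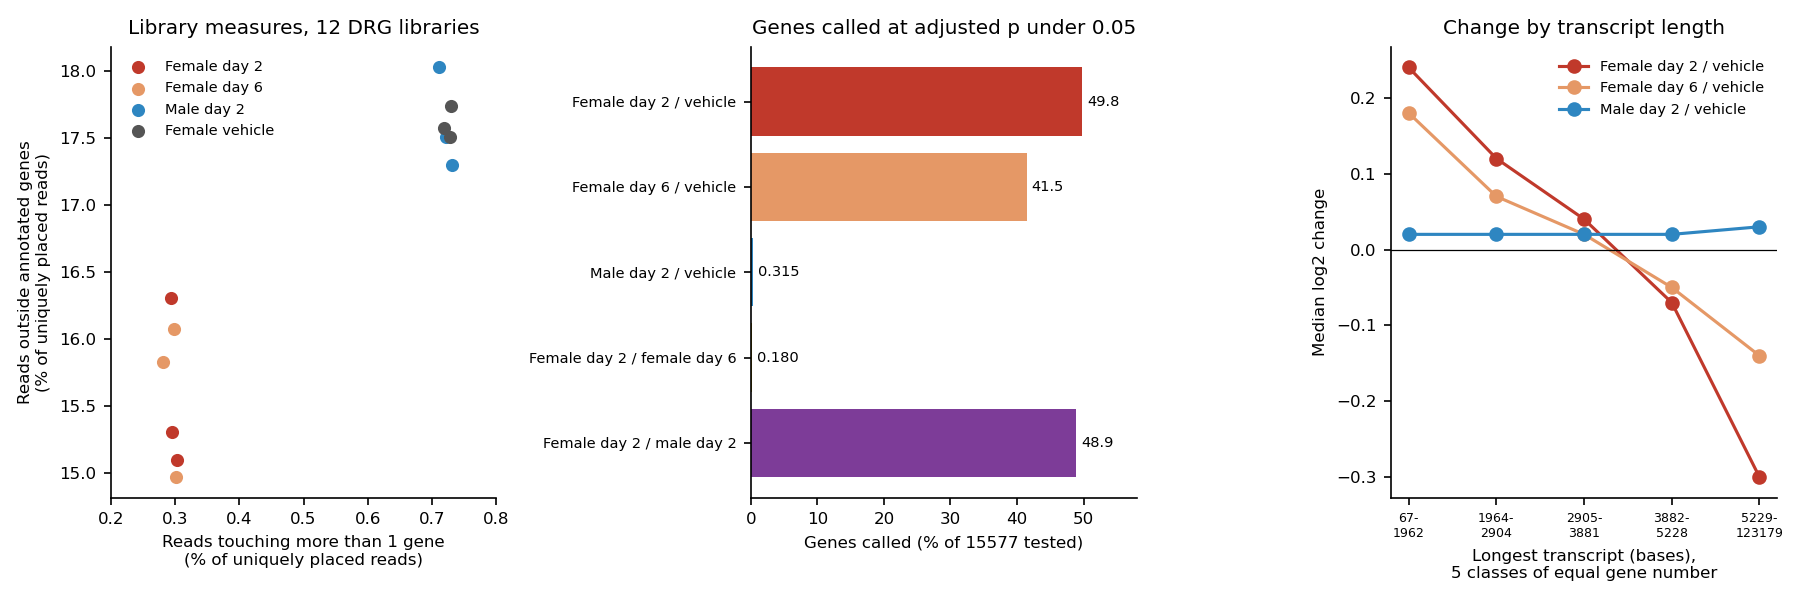
The left panel plots, for each of 12 DRG libraries, reads touching more than 1 gene against reads outside annotated genes, both as percent of uniquely placed reads. The day 2 and day 6 females lie near 0.3% on the horizontal axis, and the day 2 males and vehicle females above 0.7%. The middle panel gives the percent of 15577 genes called in each of 5 comparisons, 49.8% for day 2 females against vehicle. The right panel gives the median log2 change in 5 classes of genes by transcript length, falling to -0.30 in the longest class for day 2 females.

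The dissected tissue was sensory ganglion in every library. Peripherin (Prph) had 2300, 2040 and 2190 CPM on day 2, against 1260, 1210 and 1320 CPM in vehicle, and the sensory neuron factor Isl1 had 84.8, 78.8 and 79.1 CPM on day 2, against 76.8, 64.2 and 77.9 CPM in vehicle. Sensory neurons were thus read deeply in both groups. The motor neuron gene Chat was at 0.0421 to 0.0525 CPM on day 2 and 0.0807 to 0.172 CPM in vehicle. In whole ganglia, fewer cells of a type and less RNA per cell cannot be told apart.

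Marker genes of tissues other than ganglion differed between libraries. All 20 tested genes of differentiated keratinocytes rose on day 2 (19 with the trend removed or without day 2 replicate 2), with a median change of 2.50, and the summed level of the list was 262, 274 and 337 CPM on day 2, against 44.4, 48.1 and 46.1 CPM in vehicle. Day 6 females had 344, 230 and 298 CPM and day 2 males 41.8 to 47.1 CPM, so this list followed the library sets. Some of these genes were near 0 in vehicle and could enter the test through the libraries where they were high, so their count is a description. The day 2 excess in ganglia was a like share of the paw level for each of the 20 genes, with a median of 0.167% and a range from 0.0947% to 0.285%. Basal keratinocyte genes were mostly higher, 12 of 19 rising and 2 falling, with a median change of 1.31. The median was 1.18 in day 6 females and 0.07 in day 2 males. Genes higher in paw than in DRG were 5.8% of all genes called, and 36.4% of them passed. The part of skin reads in the other results was not tested.

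Skeletal muscle genes summed to 860, 833 and 14000 CPM on day 2, against 379, 858 and 823 CPM in vehicle, so that replicate 3 of day 2 alone was high. Of 23 muscle genes 8 rose in edgeR, 14 by DESeq2 and 19 at an unadjusted p under 0.05, while 19 rose without day 2 replicate 1 and 20 without day 2 replicate 2. Without that replicate, or without any one of the vehicle libraries, no call held in edgeR, and without that replicate the median change was 0.42 in place of 3.11. Muscle genes also varied in day 6 females (421 to 7080 CPM) and day 2 males (168 to 3440 CPM). Spinal cord genes summed to 67.4, 297 and 77.2 CPM on day 2 and to 81.6, 93.2 and 77.8 CPM in vehicle. The oligodendrocyte gene Mobp was at 0.0429, 41.6 and 0.42 CPM on day 2, against 0.351, 0.463 and 0.398 CPM in vehicle. Of 12 spinal cord genes 6 rose, and 1 did without day 2 replicate 2. Without vehicle replicate 1, 2 or 3 the rises numbered 1, 2 and 2. Adipoq, a fat cell gene, was low in day 2 replicate 2, with 17.4, 1.61 and 14.3 CPM on day 2, against 8.89, 7.58 and 13.8 CPM in vehicle.

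**Figure D2:**
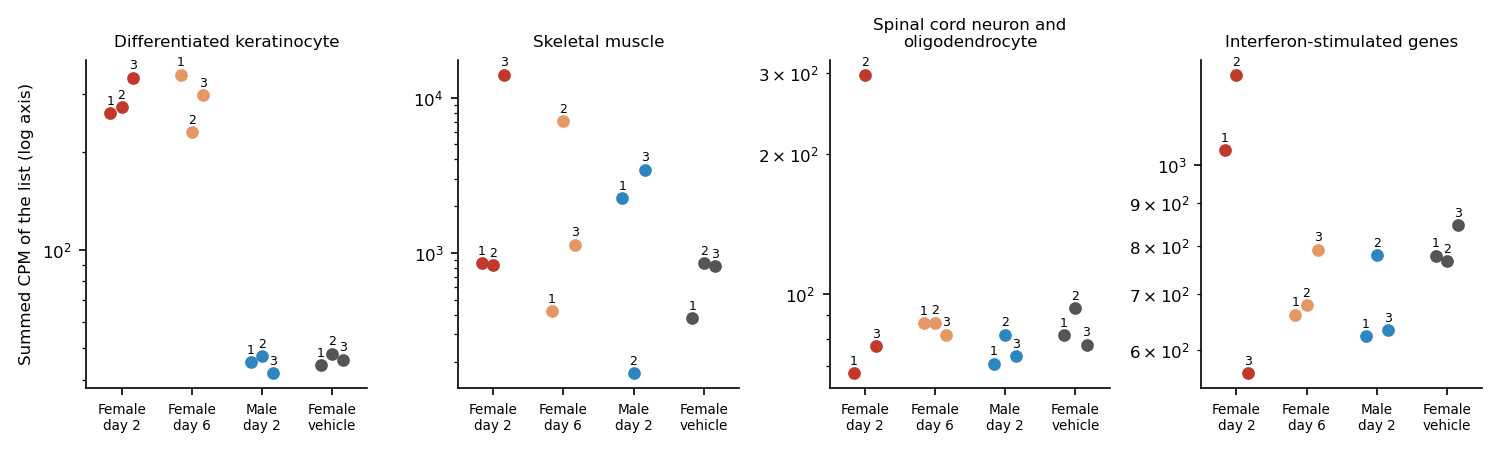
Summed CPM (log axis) of 4 gene lists in each library, numbered by replicate, for day 2 females, day 6 females, day 2 males and vehicle females. Keratinocyte genes lie between 230 and 344 CPM in both female paclitaxel groups and near 45 CPM elsewhere. Muscle genes reach 14000 CPM in day 2 replicate 3, spinal cord genes 297 CPM in day 2 replicate 2, and interferon-stimulated genes span 563 to 1280 CPM within day 2.

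Voltage-gated sodium channels, which start and carry the action potential, were mostly lower on day 2: 8 of 12 fell and 1 rose, with a median change of -0.33. Scn10a (Nav1.8, the channel of nociceptor action potentials) had 618, 855 and 787 CPM on day 2, against 1260, 1120 and 1260 CPM in vehicle. Scn9a (Nav1.7, which sets the threshold of nociceptors) had 178, 193 and 157 CPM on day 2, against 267, 232 and 276 CPM in vehicle. The day 2 libraries lay below all vehicle libraries for both. Scn8a (Nav1.6, the channel of the nodes of Ranvier) had 158, 187 and 199 CPM on day 2, against 281, 323 and 315 CPM in vehicle, a change of -0.75 ± 0.13 (adjusted p = 0.000289). With the length and GC trend removed 3 sodium channel genes fell and 1 rose (median -0.10). The list's median was 0.09 in day 2 males.

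Potassium channels, which repolarise the membrane and set excitability, changed in both directions, with 10 of 29 tested members (HCN channels included) falling and 5 rising. Among all tested genes 24.0% fell and 25.8% rose. Kcna1, a channel beside the nodes, had 474, 518 and 468 CPM on day 2, against 793, 872 and 895 CPM in vehicle. Hcn2, a pacemaker channel (170, 154 and 162 CPM on day 2, against 102, 100 and 102 CPM in vehicle) rose by 0.67 ± 0.07. Its day 2 libraries were above all vehicle libraries. Among leak channels, which set the resting potential, Kcnk3 and Kcnk2 rose (0.84 ± 0.15 and 0.36 ± 0.09) and Kcnk18 fell (-0.53 ± 0.14). Of 14 calcium channel genes 7 fell. Cacna1b (Cav2.2, the channel of transmitter release that opioids and ziconotide block) had 53.7, 72.9 and 78.9 CPM on day 2, against 114, 125 and 137 CPM in vehicle, and fell by 0.87 ± 0.15. Cacna2d1, the target of gabapentin, had 122, 120 and 133 CPM on day 2 and 137, 124 and 141 CPM in vehicle and did not pass (-0.10 ± 0.10).

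Channels that turn stimuli into currents were divided, with 5 of 22 rising (3 without day 2 replicate 3 or with the trend removed) and 4 falling (6 with the trend removed). Among all tested genes 25.8% rose and 24.0% fell, so the list showed no shift of its own. The touch channel Piezo2, listed under its older symbol Fam38b, had 270, 314 and 298 CPM on day 2, against 397, 412 and 436 CPM in vehicle, and fell by 0.50 ± 0.08 (adjusted p = 0.000167). The cold channel Trpm8 had 9.61, 17.6 and 24.7 CPM on day 2, against 35.2, 36.8 and 45.5 CPM in vehicle, a change of -1.18 ± 0.32. Trpm3, a further heat channel, fell by 1.08 ± 0.21. In these 3 channels all day 2 libraries lay below all vehicle libraries. Trpm2, of the same list, rose by 0.33 ± 0.07. The heat and irritant channels Trpv1 (130, 96.4 and 109 CPM on day 2, against 103, 89.1 and 105 CPM in vehicle) and Trpa1 (32.9, 41.9 and 31.2 CPM on day 2, against 36.9, 34.7 and 42.9 CPM in vehicle) overlapped between groups and did not pass.

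**Figure D3:**
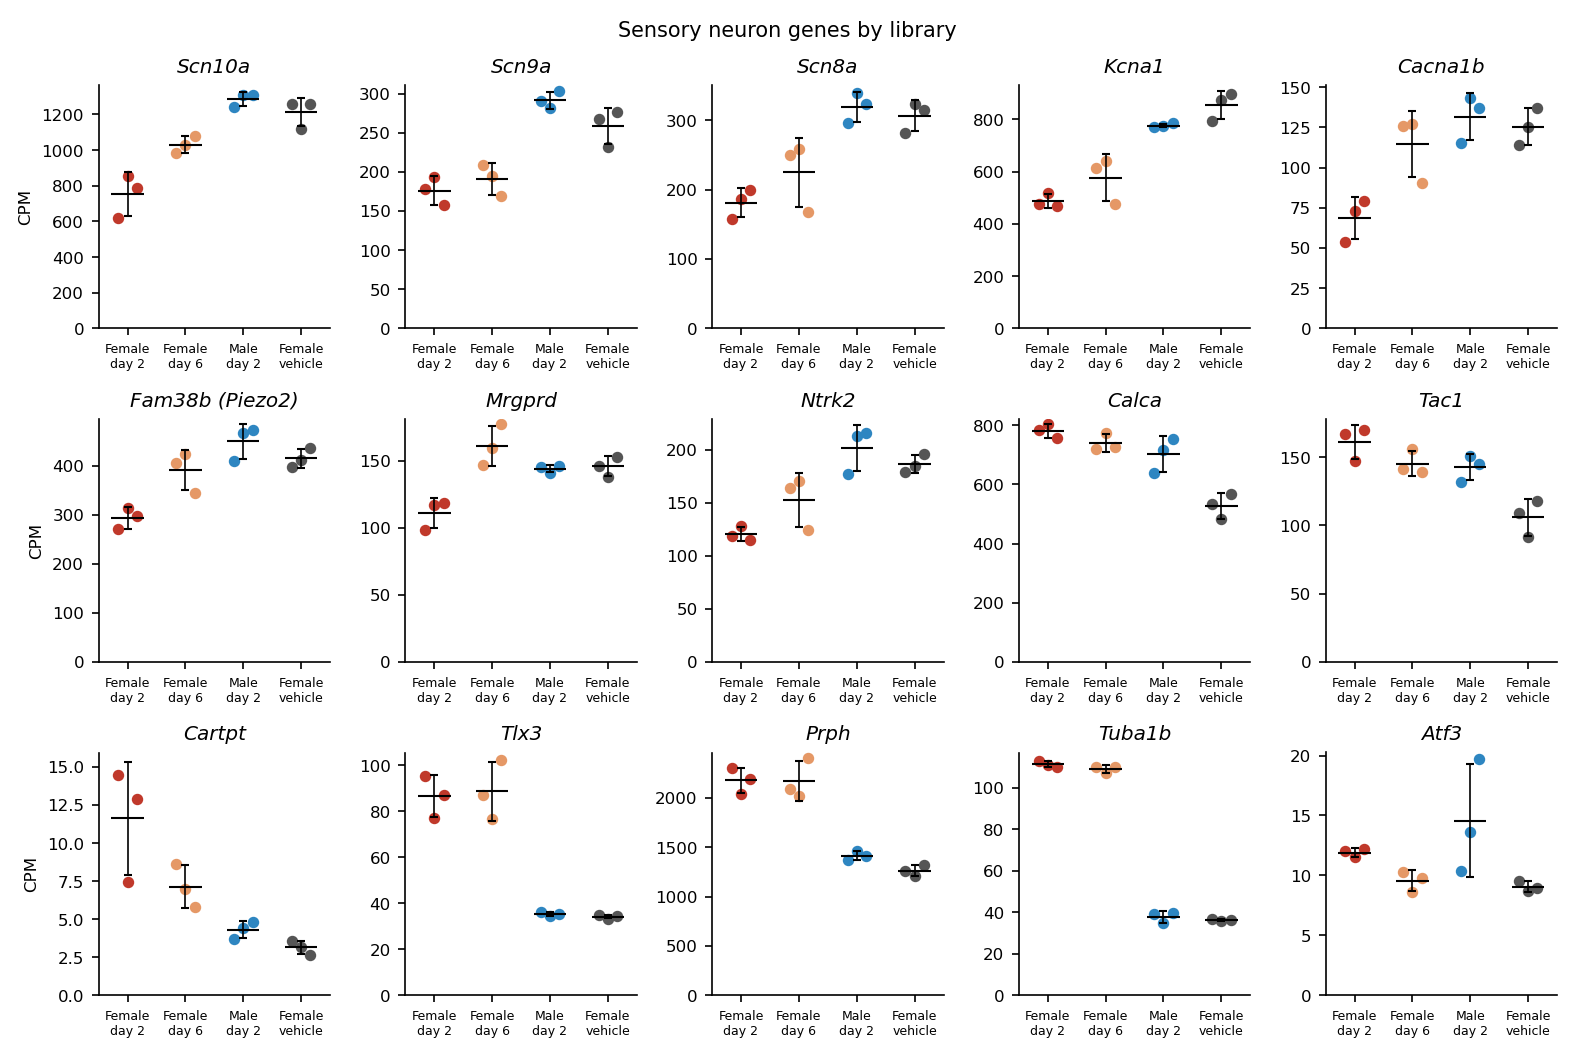
CPM of 15 sensory neuron genes in each library (points), with the mean (bar) and SD (whisker) of 3 libraries per group, for day 2 females, day 6 females, day 2 males and vehicle females. Scn10a, Scn9a, Scn8a, Kcna1, Cacna1b, Piezo2, Mrgprd and Ntrk2 were lower on day 2 than in vehicle, and Calca, Tac1, Cartpt, Tlx3, Prph and Tuba1b higher. The libraries of day 2 and day 6 females lie close for Tlx3, Prph and Tuba1b, and Mrgprd was higher on day 6 than on day 2.

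Neuropeptides of nociceptors and the enzymes that process them were higher: 13 of 24 rose and 1 fell, with a median change of 0.21. Substance P is made from Tac1, which had 167, 147 and 170 CPM on day 2, against 109, 91.3 and 118 CPM in vehicle (0.61 ± 0.10, adjusted p = 0.000144). Calcb, which encodes the beta form of CGRP, had 93.8, 95.6 and 74.3 CPM on day 2, against 61.3, 47.1 and 55.2 CPM in vehicle. Cartpt, a peptide precursor of some sensory neurons, had 14.5, 7.45 and 12.9 CPM on day 2, against 3.55, 3.2 and 2.67 CPM in vehicle, a rise of 1.88 ± 0.23. No day 2 library overlapped a vehicle library for these 3 genes. The itch peptide precursor Nppb rose by 0.84 ± 0.24, and the granule protein genes Vgf and Cpe rose by 0.67 ± 0.14 and 0.48 ± 0.06. With the trend removed 10 members rose and 2 fell. In day 2 males the list's median was 0.19 and Calca rose (637, 718 and 754 CPM in day 2 males, against 534, 482 and 568 CPM in vehicle females, 0.41 ± 0.08, adjusted p = 0.0301), a result that does not cross the library sets. In day 2 females Calca had 783, 804 and 756 CPM and rose by 0.56 ± 0.08.

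Of 32 receptors of nociceptors 9 fell and 2 rose (4 without day 2 replicate 3), so the share that fell was near the 24.0% of all tested genes. F2rl2, a thrombin receptor subunit, had 58.5, 55.7 and 52.3 CPM on day 2, against 110, 89 and 109 CPM in vehicle (-0.89 ± 0.08). The itch and pain receptor Mrgprd, which marks nonpeptidergic nociceptors, had 98, 117 and 118 CPM on day 2, against 146, 138 and 153 CPM in vehicle (-0.39 ± 0.09). Oprd1, the delta opioid receptor, had 4.93, 13.3 and 15 CPM on day 2, against 20.8, 22.4 and 22 CPM in vehicle (-0.98 ± 0.26). In contrast, Adra2c, an adrenoceptor that restrains transmitter release, rose by 0.98 ± 0.10. Among trophic receptors, those of touch neurons and proprioceptors, Ntrk2 (119, 128 and 115 CPM on day 2, against 179, 185 and 196 CPM in vehicle) and Ntrk3 (36.6, 39.4 and 31.1 CPM on day 2, against 46, 50.1 and 48.2 CPM in vehicle), fell by 0.63 ± 0.10 and 0.43 ± 0.09.

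Transcription factors that specify sensory neurons split as well, 8 of 26 rising and 9 falling, beside 25.8% and 24.0% of all tested genes. Pou4f1 (Brn3a, a factor of nearly all sensory neurons) had 241, 212 and 205 CPM on day 2, against 169, 150 and 158 CPM in vehicle. Tlx3 had 95.3, 77 and 87 CPM on day 2, against 34.8, 33.3 and 34.5 CPM in vehicle, and rose by 1.34 ± 0.09. Runx1, the factor of nonpeptidergic nociceptors, had 63.4, 54.7 and 48.8 CPM on day 2, against 92.6, 81.5 and 90 CPM in vehicle, and fell by 0.66 ± 0.10. All 3 were separated between groups. Klf7, a Krüppel-like factor of developing sensory neurons, fell by 1.22 ± 0.25.

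Receptors at synapses fell more than they rose, 12 against 5 of 32 tested genes, and 10 against 2 with the trend removed (median -0.03 in place of -0.15). The rises numbered 1 without day 2 replicate 1, 2 without vehicle replicate 1 or 2 and 3 without vehicle replicate 3. Gabbr2, a subunit of the GABA-B receptor that dampens release from sensory terminals, had 114, 141 and 138 CPM on day 2, against 198, 185 and 198 CPM in vehicle (-0.56 ± 0.07). Chrna7, a nicotinic receptor subunit, fell by 1.09 ± 0.30 and Htr2a by 1.35 ± 0.28. Grin1, the obligate NMDA receptor subunit, rose (166, 176 and 187 CPM on day 2, against 104, 108 and 100 CPM in vehicle, 0.76 ± 0.06), with exon bases shared with E130003G02Rik. Genes of vesicle release also divided, 12 of 29 falling and 6 rising, with Sv2a (82.8, 96 and 88.8 CPM on day 2, against 55, 51.1 and 49.1 CPM in vehicle) among those that rose and Rims1 (15.6, 26.4 and 18.9 CPM on day 2, against 36.9, 41.9 and 45.6 CPM in vehicle) among those that fell.

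Genes known to rise in neurons after nerve injury showed no common shift: 8 of 32 rose and 6 fell, with a median of 0.04. Atf3, the classic injury factor, had 12, 11.5 and 12.2 CPM on day 2, against 9.56, 8.67 and 8.95 CPM in vehicle. Its libraries did not overlap, yet it did not pass (0.39 ± 0.17, adjusted p = 0.0613). Gap43, a growth cone protein, had 182, 182 and 180 CPM on day 2, against 145, 126 and 148 CPM in vehicle (0.38 ± 0.06), and Jun, which drives regeneration, had 127, 136 and 135 CPM on day 2, against 114, 104 and 102 CPM in vehicle (0.31 ± 0.08). Gal, a peptide induced by axotomy, rose by 0.86 ± 0.18 from a low level, and Gadd45a had 30.3, 27.2 and 27.2 CPM on day 2, against 12.9, 11.7 and 12.3 CPM in vehicle. Sprr1a, an injury gene nearly silent in intact ganglia, was low in females at 0.515, 0.29 and 0.157 CPM on day 2, against 0.702, 0.421 and 0.119 CPM in vehicle. In day 2 males it had 1.36, 6.6 and 15.7 CPM and rose by 4.23 ± 0.79 (adjusted p = 0.0355), with its 3 libraries far apart. Ecel1, induced with Atf3 in injured neurons, had 0.558, 1.37 and 1.05 CPM in day 2 females, 1.28, 2.84 and 4.16 CPM in day 2 males and 0.468, 0.337 and 0.398 CPM in vehicle females.

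Axon survival and degeneration genes included 7 rises and 9 falls among 27, beside 25.8% and 24.0% of all tested genes. Nmnat2, the labile NAD enzyme whose loss starts axon degeneration, had 104, 98 and 92 CPM on day 2, against 147, 136 and 146 CPM in vehicle, and fell by 0.55 ± 0.07 (adjusted p = 2.71e-05). Sarm1, the enzyme that carries out that degeneration, had 50.4, 55.2 and 54.1 CPM on day 2, against 55.7, 52.6 and 50.8 CPM in vehicle and did not pass (0.01 ± 0.07). The stress kinase genes Map3k13 (LZK) and Mapk10 (JNK3) fell by 1.22 ± 0.22 and 0.48 ± 0.05. In contrast, Map3k12 of the same list rose by 0.43 ± 0.05, and by 0.63 with the trend removed. Without day 2 replicate 1 the falls in the list numbered 5.

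Microtubule genes, the direct target system of paclitaxel, moved without a common direction, 16 of 50 regulators and motors rising and 18 falling, with a median of -0.02. Kif5c, a kinesin heavy chain of axonal transport, had 500, 585 and 502 CPM on day 2, against 749, 867 and 870 CPM in vehicle (-0.65 ± 0.13), and Kif1b, a further kinesin, had 831, 937 and 920 CPM on day 2, against 1220, 1340 and 1350 CPM in vehicle (-0.54 ± 0.11). The light chain Klc1, in contrast, had 2050, 1930 and 2070 CPM on day 2, against 1570, 1500 and 1630 CPM in vehicle (0.37 ± 0.05). The tubulin folding cofactor Tbca rose to 67.1, 66.8 and 67.6 CPM on day 2, against 20.1, 17.5 and 20.8 CPM in vehicle (1.79 ± 0.08). Atat1, which acetylates the tubulin of stable microtubules, had 20.2, 22.8 and 20.3 CPM on day 2, against 34.1, 33.8 and 33 CPM in vehicle (-0.67 ± 0.08). Stmn2, the axonal tubulin-binding protein, overlapped between groups at 1450, 1340 and 1340 CPM on day 2 and 1410, 1270 and 1390 CPM in vehicle.

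Among 16 tubulin genes 3 rose and 5 fell, and 1 rose and 7 fell with the trend removed (median -0.15). The neuronal isotype Tubb3 had 2050, 1850 and 1970 CPM on day 2, against 1970, 2030 and 2040 CPM in vehicle and did not pass. Tuba1b had 113, 111 and 110 CPM on day 2, against 36.6, 35.6 and 36.3 CPM in vehicle, and rose by 1.62 ± 0.05. It had 110, 107 and 110 CPM in day 6 females and 39.3, 34.6 and 39.4 CPM in day 2 males, so its level followed the library sets. Tubulin isotypes are similar in sequence, and reads without a unique place were not counted, so their levels are uncertain. Neurofilaments and other neuronal filaments had 7 rises and 4 falls among 12, with a median of 0.34. Nefh (heavy neurofilament of large myelinated neurons) had 3110, 3110 and 3340 CPM on day 2, against 2500, 2540 and 2440 CPM in vehicle, a rise of 0.36 ± 0.04, and day 2 males had 3140, 2960 and 2900 CPM (0.27 ± 0.04, adjusted p = 0.0183). The scaffold genes Ank2 (517, 593 and 543 CPM on day 2, against 959, 967 and 1030 CPM in vehicle) and Ank3 fell by 0.84 ± 0.07 and 0.50 ± 0.07.

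Myelinating Schwann cell genes included 5 rises and 8 falls among 24, around a median of -0.09, with 2 rises without vehicle replicate 1 or with the trend removed and 3 without vehicle replicate 2 or day 2 replicate 2. Among all tested genes 25.8% rose and 24.0% fell. Egr2, the master regulator of myelination, had 60.8, 56.3 and 81.1 CPM on day 2, against 116, 119 and 116 CPM in vehicle (-0.83 ± 0.20). Drp2, a part of the dystroglycan complex of the myelin sheath, had 905, 990 and 1120 CPM on day 2, against 1690, 2120 and 1950 CPM in vehicle (-0.93 ± 0.14), and its partner Prx rose by 0.25 ± 0.07. Pmp22, the dosage-sensitive myelin gene, had 4540, 5220 and 4520 CPM on day 2, against 6470, 5790 and 5470 CPM in vehicle (-0.31 ± 0.08). Of 26 genes of satellite and nonmyelinating glia 6 rose (3 with the trend removed) and 10 fell. Cdh2 of this list had 63.6, 70.9 and 66.2 CPM on day 2, against 102, 101 and 101 CPM in vehicle. It fell by 0.60 ± 0.06, and by 0.47 with the trend removed. Sox2, a factor of immature glia, had 34.2, 28.1 and 19.9 CPM on day 2, against 15.3, 12.1 and 14.5 CPM in vehicle (0.97 ± 0.16), and the lipid carrier Apoe had 3280, 2830 and 2940 CPM on day 2, against 2180, 2220 and 2130 CPM in vehicle (0.47 ± 0.07). With the trend removed Apoe did not pass (0.08, adjusted p = 0.242).

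Of 30 macrophage genes 8 fell and 3 rose, beside 24.0% of all tested genes that fell, with a median of -0.26. With the trend removed 1 rose and 11 fell. Lyz2 had 53.1, 54.6 and 58.5 CPM on day 2, against 92.1, 109 and 72.3 CPM in vehicle (-0.72 ± 0.18). C1qa, a complement subunit that macrophages make, had 31.6, 25.9 and 31.4 CPM on day 2, against 39.6, 49.5 and 37.1 CPM in vehicle (-0.51 ± 0.11). The groups did not overlap for either gene. Csf1r, the growth factor receptor of macrophages, had 37.4, 39.7 and 37.3 CPM on day 2 and 44, 44.5 and 32.5 CPM in vehicle and did not pass. The falls numbered 4 without day 2 replicate 1 or vehicle replicate 2, and 1 gene rose without any one of the vehicle libraries. Day 2 males, in the library set of the vehicle females, had a median of -0.39 and 4 falls, among them Cd74 (116, 118 and 124 CPM in males and 159, 147 and 100 CPM in day 2 females, against 194, 213 and 176 CPM in vehicle females), the invariant chain of antigen presentation. Ctss had 13.3, 13.5 and 15.8 CPM in males, 20.4, 22 and 22 CPM in day 2 females and 26.7, 26.6 and 24.7 CPM in vehicle females.

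Cpa3, a mast cell protease, had 1.8, 1.16 and 1.89 CPM on day 2, against 4.37, 4.25 and 4.02 CPM in vehicle (-1.39 ± 0.29), and Tpsb2, a tryptase, had 3.3, 1.95 and 3.04 CPM on day 2, against 5.73, 7.07 and 5.89 CPM in vehicle (-1.17 ± 0.21). Together with Mcpt4, Cma1 and the T cell gene Cd4 these were the 5 falls among 17 genes of T cells, neutrophils and mast cells, with 3 falls without vehicle replicate 2. The calls of Cma1 and Cd4 ended without that library, and that of Cd4 also without day 2 replicate 3. Of 20 cytokine and chemokine genes Cxcl12, Lif and Tlr4 fell and Myd88 rose (0.29), a rise that did not hold without day 2 replicate 1 or 2 or without any one of the vehicle libraries. The fall of Tlr4 did not hold without day 2 replicate 1. Interferon-stimulated genes varied within day 2 more than between groups. Isg15 had 19.3, 30.2 and 5.93 CPM on day 2, against 5.34, 6.19 and 4.97 CPM in vehicle. Of 27 such genes 4 rose, but 15 rose without day 2 replicate 3 and 2 rose without day 2 replicate 1, day 2 replicate 2 or vehicle replicate 1.

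Fibroblast and matrix genes fell in 17 of 32 cases and rose in 2, with a median of -0.31. Fn1 (fibronectin) had 115, 184 and 145 CPM on day 2, against 276, 370 and 232 CPM in vehicle (-0.99 ± 0.19). Igfbp5, a binding protein of insulin-like growth factors, had 198, 198 and 178 CPM on day 2, against 421, 566 and 382 CPM in vehicle (-1.25 ± 0.11), and Ogn, a small proteoglycan, had 428, 470 and 389 CPM on day 2, against 718, 731 and 684 CPM in vehicle (-0.73 ± 0.11). These 3 genes were separated in every library. The fibrillar collagen Col1a2 rose (954, 1190 and 806 CPM on day 2, against 771, 778 and 670 CPM in vehicle, 0.41 ± 0.12). Day 2 males had a median of -0.38, with Col6a2 at 78.8, 82.1 and 73.7 CPM in day 2 males, against 109, 127 and 104 CPM in vehicle females. The day 2 falls numbered 10 without day 2 replicate 1 and 9 without vehicle replicate 2, and vehicle replicate 2 was the highest library for Fn1 and Igfbp5. Vessel genes gave 8 rises (5 without vehicle replicate 1) and 4 falls among 26, with the tight junction gene Cldn5 rising (56.7, 59.2 and 54.3 CPM on day 2, against 33, 39.2 and 34.3 CPM in vehicle, 0.68 ± 0.10) and the adherens junction gene Cdh5 falling (48.6, 37.8 and 47.3 CPM on day 2, against 59.9, 77.2 and 57.4 CPM in vehicle, -0.54 ± 0.12).

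Respiratory chain subunits were mostly higher, with 45 of 53 rising, 1 falling and a median change of 0.51. Ndufs7 of complex I had 83.5, 77 and 100 CPM on day 2, against 35.7, 40 and 38.3 CPM in vehicle (1.19 ± 0.09). Uqcrq of complex III had 109, 108 and 138 CPM on day 2, against 52.7, 58.4 and 57.1 CPM in vehicle (1.07 ± 0.08), and the ATP synthase subunit Atp5g3 had 282, 271 and 300 CPM on day 2, against 143, 142 and 139 CPM in vehicle (1.01 ± 0.05). All day 2 libraries were above all vehicle libraries for these genes. The list is made of short genes, with a median transcript of 1232 bases, and with the trend removed 32 members rose and 6 fell (median 0.33). Its median was 0.42 in day 6 females and 0.07 in day 2 males. Replicate 3 of day 2, the library rich in muscle genes, was the highest for all 3 genes named here. Genes of the tricarboxylic acid cycle and mitochondrial import rose in 21 of 36 cases, such as Dlat of pyruvate dehydrogenase (183, 163 and 177 CPM on day 2, against 109, 101 and 102 CPM in vehicle). In contrast, Ppargc1a, the coactivator that drives mitochondrial biogenesis, had 15.8, 19.4 and 15.7 CPM on day 2, against 29.5, 36.4 and 27.3 CPM in vehicle and fell by 0.87 ± 0.16. Dnm1l, the fission enzyme, fell by 0.33 ± 0.06, and Mfn2, a fusion enzyme, rose by 0.50 ± 0.06.

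Cytosolic ribosomal protein genes rose in 45 of 74 cases and fell in 5, with a median of 0.64. Rps14 had 94.3, 99.5 and 116 CPM on day 2, against 38.8, 44 and 39.5 CPM in vehicle (1.34 ± 0.08), and Rpl39 had 21.5, 21.9 and 25.8 CPM on day 2, against 3.2, 2.95 and 3.38 CPM in vehicle (2.86 ± 0.10). Rpl23 was lower at 25.5, 26.6 and 30.4 CPM on day 2, against 51.2, 49.8 and 52 CPM in vehicle (-0.89 ± 0.08). Members of the list thus differed in sign and size of change. Ribosomal protein genes have many processed pseudogenes, and reads without a unique place were not counted, so these levels are uncertain. Among all tested genes with a named pseudogene 61.9% passed. The list's median was 0.59 in day 6 females and -0.04 in day 2 males. The glycolytic gene Gapdh, one of the most abundant messages of most cells, was counted at only 0.944, 0.952 and 0.577 CPM on day 2 and 1.72, 1.35 and 1.31 CPM in vehicle, and it has 3 named pseudogenes.

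Proteasome subunits rose in 22 of 31 cases and fell in 3 (median 0.32), and with the trend removed 19 rose and 5 fell (median 0.15). Psmb4 had 226, 233 and 236 CPM on day 2, against 82.4, 79.8 and 81.8 CPM in vehicle (1.51 ± 0.05), and day 6 females had a change of 1.44 and day 2 males of 0.01. Of 25 heat shock genes 8 rose and 5 fell, and 3 fell without day 2 replicate 2 or 3 or any one of the vehicle libraries. The constitutive chaperone Hspa8 fell to 239, 241 and 245 CPM on day 2, against 565, 528 and 556 CPM in vehicle (-1.19 ± 0.05), whereas the small heat shock protein gene Hspb1 had 39.9, 35 and 46.7 CPM on day 2, against 18.5, 21.6 and 22.8 CPM in vehicle (0.95 ± 0.10). The replicates of Hspa8 and Psmb4 were very close within each group. Unfolded protein response genes gave 6 rises (3 with the trend removed) and 9 falls (5 without day 2 replicate 3) among 26, with Atf4 falling by 0.25 ± 0.05 and Manf rising by 0.57 ± 0.09. Of 29 antioxidant genes 14 rose and 4 fell (8 with the trend removed, 6 without day 2 replicate 3): the enzyme Prdx3 of mitochondria rose by 0.60 ± 0.07, and Nfe2l2, the regulator of the antioxidant response, fell by 0.41 ± 0.05. Lysosome and autophagy genes rose in 13 of 31 cases and fell in 4 (8 with the trend removed), with Becn1 at 148, 149 and 144 CPM on day 2, against 91.7, 92.1 and 97.3 CPM in vehicle (0.65 ± 0.05).

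Targets of p53 gave 4 rises (2 with the trend removed) and 5 falls among 23, with 3 falls without day 2 replicate 2 or any one of the vehicle libraries, and immediate early genes, which report recent activity, 7 rises and 6 falls among 24. Both lists stand beside 25.8% of all tested genes rising and 24.0% falling. Jund had 200, 172 and 177 CPM on day 2, against 93, 99.7 and 95.4 CPM in vehicle (0.93 ± 0.08), while Nr4a2 had 31.2, 31.8 and 27.4 CPM on day 2, against 49.9, 51.2 and 46.9 CPM in vehicle (-0.71 ± 0.07). With the trend removed 1 immediate early gene rose and 5 fell, and 4 rose without vehicle replicate 3 while 3 fell without day 2 replicate 1 or vehicle replicate 2. Mitosis genes, which mark dividing cells other than the postmitotic neurons, fell in 8 of 24 cases (5 without day 2 or vehicle replicate 3), with a median of -0.50. The share of all tested genes that fell was 24.0%, near that of the list when either of these libraries was left out. Mki67, present in all phases of division, had 4.12, 5.84 and 3.94 CPM on day 2, against 10.3, 10.1 and 12.6 CPM in vehicle (-1.25 ± 0.33), and Nusap1, a spindle protein, had 1.42, 0.869 and 1.1 CPM on day 2, against 2.93, 2.57 and 3.54 CPM in vehicle (-1.41 ± 0.22). Both were separated between groups. The list's median was -0.69 in day 6 females and -0.28 in day 2 males. Of 24 DNA replication genes 5 rose and 4 fell, beside 25.8% and 24.0% of all tested genes.

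**Figure D4:**
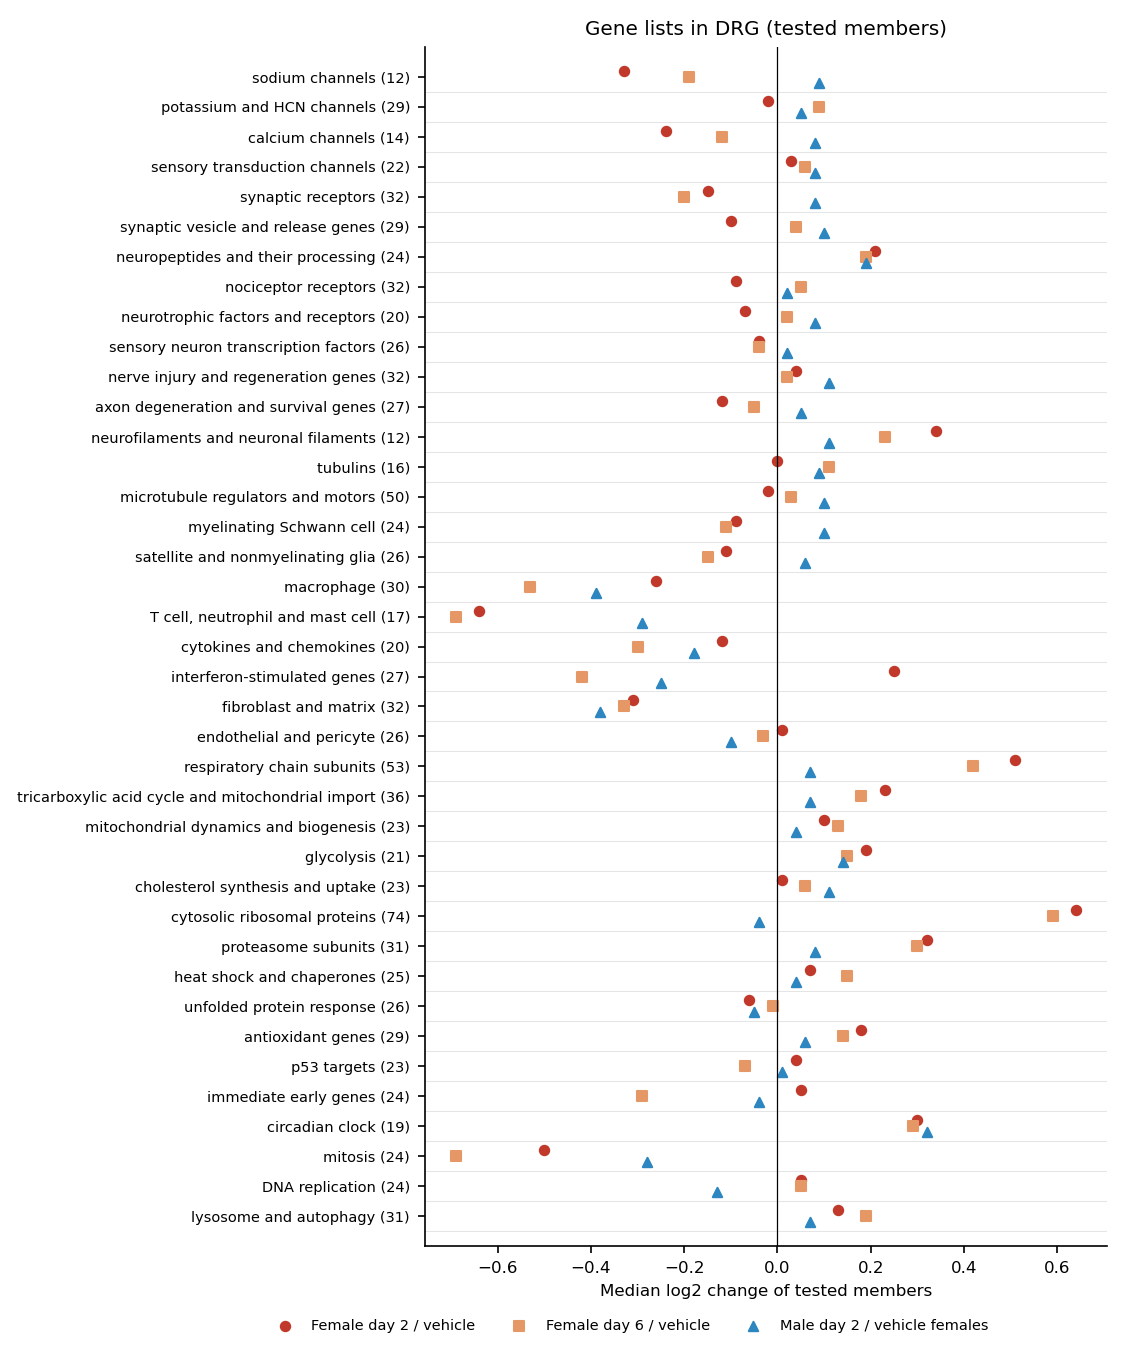
Median log2 change over the tested members of 39 gene lists (number in brackets) for day 2 females, day 6 females and day 2 males, each against the same 3 vehicle libraries. On day 2 the medians run from -0.64 for T cell, neutrophil and mast cell genes to 0.64 for ribosomal proteins. The respiratory chain and ribosomal lists lie near 0 in day 2 males. The macrophage, fibroblast and clock lists lie on the same side of 0 in all 3 comparisons, as do others such as the neuropeptide and mitosis lists.

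Circadian clock genes gave 9 rises and 3 falls among 19 on day 2, and 6 rises and 1 fall in day 2 males. In the clock, ARNTL pairs with CLOCK or NPAS2 and activates genes with an E-box (CACGTG), among them the Per, Cry and Nr1d genes and the output factors Dbp and Tef. PER and CRY proteins then repress this pair, NR1D1 and NR1D2 repress Arntl through the ROR element (TAGGTCA), and DBP and TEF act on the D-box (TTATGTAA). The hour at which ganglia were taken is not given in the sources used here, so treatment, day and hour cannot be told apart. Promoter windows of RefSeq on GRCm38.p6, from 250 bases before to 50 bases after the start, were found for 11 of the 12 clock genes that passed and searched on both strands. A perfect E-box was found for 3 genes (Tef, Cry1 and Bhlhe41), a D-box for Per3 and a ROR element for Arntl. Among all 32851 promoter windows, 7.15% hold the E-box, 0.938% the D-box and 2.61% the ROR element. A match is a description of the sequence and not a record of binding. The windows of Tef and Per3 are shown because they hold the motif before the start in genes that rose, and the site of Arntl because that gene fell, each 5′ to 3′ on the strand of the gene with the motif in capitals.
Tef, 250 bases before the start at chr15:81802423-81802672, plus strand, with 1 E-box: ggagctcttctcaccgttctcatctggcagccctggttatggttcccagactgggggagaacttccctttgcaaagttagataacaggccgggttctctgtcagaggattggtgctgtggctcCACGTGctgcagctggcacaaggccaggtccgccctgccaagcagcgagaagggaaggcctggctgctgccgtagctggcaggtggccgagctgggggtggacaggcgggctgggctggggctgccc
Per3, 250 bases before the start at chr4:151044666-151044915, minus strand, with 2 D-boxes: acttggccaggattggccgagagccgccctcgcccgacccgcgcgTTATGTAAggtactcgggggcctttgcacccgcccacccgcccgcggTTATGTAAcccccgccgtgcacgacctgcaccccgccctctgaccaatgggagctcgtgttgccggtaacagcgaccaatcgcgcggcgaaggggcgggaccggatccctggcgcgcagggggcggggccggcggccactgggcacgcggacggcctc
Arntl, chr7:113207529-113207558, plus strand, with the ROR element: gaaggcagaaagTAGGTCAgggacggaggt

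Arntl had 10.6, 11.5 and 8.87 CPM in day 2 females and 7.18, 5.82 and 6.98 CPM in day 2 males, against 20.8, 24.6 and 21 CPM in vehicle females. It fell by 1.10 ± 0.14 in females (adjusted p = 2.42e-05) and by 1.73 ± 0.15 in males (adjusted p = 2.41e-05). Every paclitaxel library lay below every vehicle library. Dbp, the output gene with the largest swing of the list, had 46, 32.2 and 59.7 CPM in day 2 females and 21.6, 27.7 and 19 CPM in day 2 males, against 4.37, 4.63 and 4.5 CPM in vehicle females. It rose by 3.35 ± 0.20 in females and 2.34 ± 0.20 in males, and it shares exon bases with Sphk2. Tef had 149, 143 and 160 CPM in day 2 females and 146, 161 and 150 CPM in day 2 males, against 108, 104 and 104 CPM in vehicle females. These rises were of like size, 0.51 ± 0.06 and 0.53 ± 0.06, and the paclitaxel libraries were above the vehicle libraries in both sexes.

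Per3, the gene with 2 D-boxes, had 26.2, 29.1 and 32.8 CPM in day 2 females and 43.9, 57.2 and 52.8 CPM in day 2 males, against 19.7, 21 and 20.8 CPM in vehicle females. Nr1d1 had 75.2, 47.4 and 87.8 CPM in day 2 females and 119, 115 and 86.6 CPM in day 2 males, against 36.2, 45.7 and 38.8 CPM in vehicle females, with day 2 replicate 2 close to the highest vehicle library. The changes in females were 0.52 ± 0.12 for Per3 and 0.80 ± 0.19 for Nr1d1, and those in males 1.33 ± 0.12 and 1.41 ± 0.19. Per2 had 14.7, 15.7 and 18.5 CPM in day 2 females, 25.2, 34.5 and 35.3 CPM in day 2 males and 13.4, 13 and 14.8 CPM in vehicle females, with a change of 0.24 ± 0.17 in females (adjusted p = 0.245) and 1.20 ± 0.17 in males (adjusted p = 0.00391). Set directly against day 2 males, day 2 females differed by -0.96 ± 0.17 for Per2, -0.81 ± 0.12 for Per3 and -0.61 ± 0.19 for Nr1d1 (adjusted p = 0.000306, 9.64e-05 and 0.0162), in a comparison that crosses the library sets. Day 6 females had 36.8, 34.2 and 38.7 CPM of Dbp and 12.6, 11.8 and 10 CPM of Arntl, close to day 2 females. The males share the library set of the vehicle females, so these clock changes in males do not cross the sets.

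**Figure D5:**
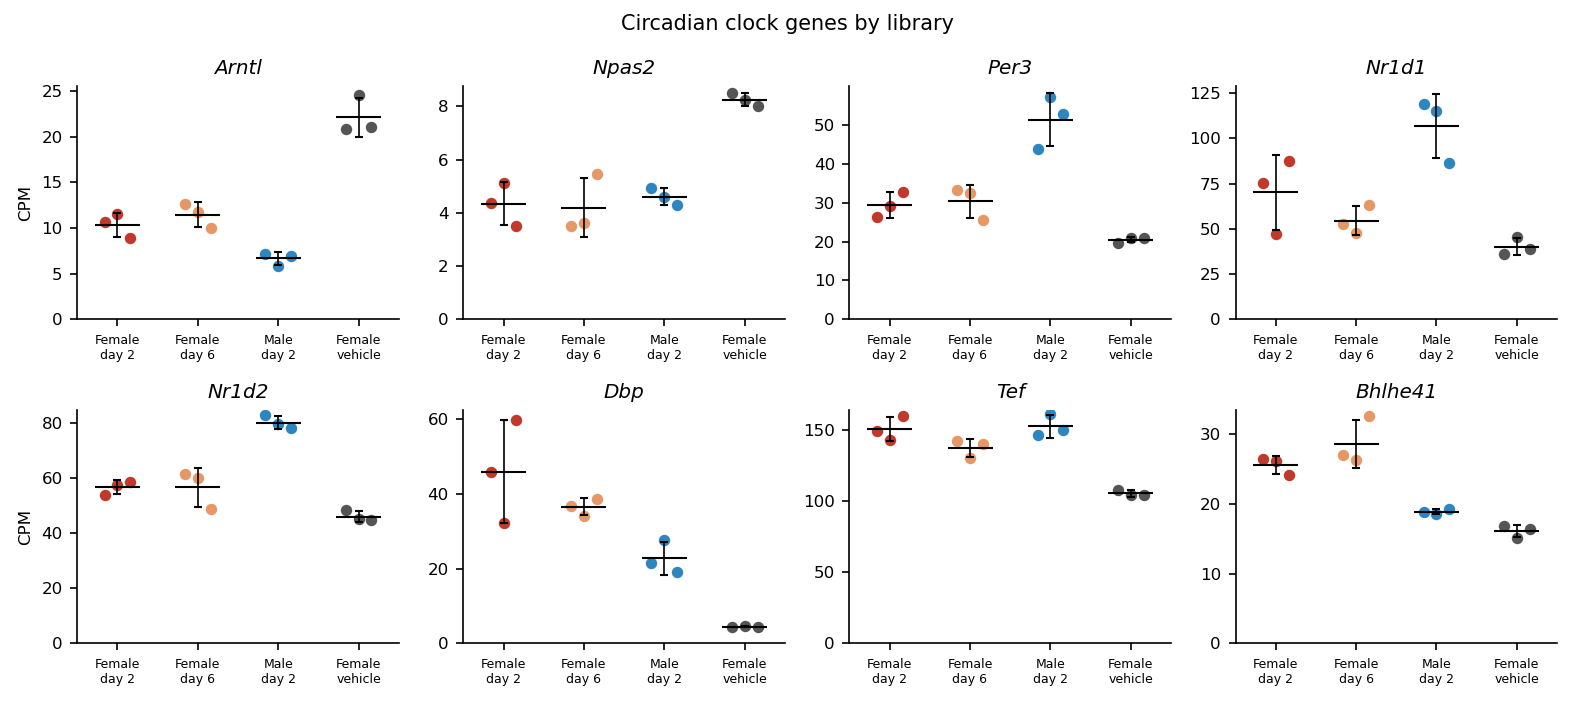
CPM of 8 clock genes in each library (points) with mean (bar) and SD (whisker) of 3 libraries, for day 2 females, day 6 females, day 2 males and vehicle females. Arntl and Npas2 were lowest in the paclitaxel groups, and Dbp, Tef, Per3, Nr1d1 and Nr1d2 were higher there than in vehicle. Per3, Nr1d1 and Nr1d2 were highest in day 2 males.

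Day 2 and day 6 females belong to 1 library set, and the 28 genes that passed between them (0.180%) divide into 17 higher (0.109%) and 11 lower (0.0706%) on day 2. Of 32 nociceptor receptors and of 12 sodium channel genes, 1 each passed as lower on day 2 than on day 6. Mrgprd had 98, 117 and 118 CPM on day 2, against 147, 159 and 177 CPM on day 6 (-0.54 ± 0.09, adjusted p = 0.035), and Scn11a (Nav1.9, a channel of nonpeptidergic nociceptors) had 412, 477 and 350 CPM on day 2, against 579, 603 and 588 CPM on day 6 (-0.51 ± 0.09, adjusted p = 0.0485). In vehicle these genes had 138 to 153 CPM and 496 to 591 CPM. Kcnd3, a channel of transient potassium current, had 94.2, 103 and 80.4 CPM on day 2, against 139, 139 and 113 CPM on day 6, and Htr4, a serotonin receptor, had 6.39, 6.71 and 6.04 CPM on day 2, against 10.2, 9.98 and 9.21 CPM on day 6. Day 2 was thus the low group for all 4, both against day 6 and against vehicle. Ckap5, a microtubule polymerase, had 181, 188 and 173 CPM on day 2, against 237, 235 and 211 CPM on day 6 (-0.34 ± 0.05, adjusted p = 0.0253).

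Among the genes higher on day 2 than on day 6, Cacng2, which escorts AMPA receptors to the membrane, had 14.8, 19.1 and 13.3 CPM on day 2, against 8.02, 6.62 and 7.2 CPM on day 6 (1.11 ± 0.13, adjusted p = 0.00705), and Gabra2, a GABA-A receptor subunit, had 10.3, 13.1 and 9.66 CPM on day 2, against 6.16, 5.73 and 4.65 CPM on day 6 (1.00 ± 0.13, adjusted p = 0.00812). In vehicle these genes had 17 to 18.6 and 15.6 to 17.4 CPM, so all day 6 libraries lay below vehicle for both genes, and all day 2 libraries did for Gabra2. Ctss of macrophages had 20.4, 22 and 22 CPM on day 2, against 14.8, 13.6 and 13.4 CPM on day 6 (0.62 ± 0.09, adjusted p = 0.0163).

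The largest falls on day 2 among genes without shared exon bases or named pseudogenes were those of Pla2g4b, Slc18a2 and Sv2c. Pla2g4b, a phospholipase A2, had 5.58, 5.75 and 4.83 CPM on day 2, against 77.2, 93.6 and 78.9 CPM in vehicle (-3.94 ± 0.16). Slc18a2, which loads monoamines into vesicles, had 1.16, 0.455 and 1.05 CPM on day 2, against 11.5, 10.1 and 9.87 CPM in vehicle (-3.57 ± 0.28). Day 6 females were as low, with 3.33 to 5.92 CPM of Pla2g4b and 0.456 to 1.37 CPM of Slc18a2, and day 2 males were at 77 to 82.9 and 9.05 to 10.4 CPM. Xrcc3, Dcdc2b and Star, with roles in DNA repair, the cytoskeleton and steroid synthesis, likewise fell by 2.43 to 2.67 and had changes from -0.06 to 0.08 in males. Sv2c, a vesicle protein, had 5.92, 21.8 and 25.2 CPM on day 2, against 88.5, 208 and 216 CPM in vehicle (-3.28 ± 0.72). Its day 6 libraries had 112, 125 and 17 CPM and its male libraries 64.7, 230 and 244 CPM, so it varied widely within every group. Hipk2, a kinase of the stress response, spanned a like range in vehicle (1.24, 2.57 and 2.78 CPM on day 2, against 8.62, 23.6 and 20.7 CPM in vehicle).

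Among the largest rises by the same rule, Slc12a5, the chloride exporter of central neurons, rested on replicate 2. It had 2.92, 46.6 and 2.2 CPM on day 2, against 1.56, 1.85 and 1.31 CPM in vehicle, and its adjusted p reached 0.116 when single libraries were left out. The nucleoside diphosphate kinase Nme2 had 45.7, 41.6 and 52.1 CPM on day 2, against 10.7, 10.3 and 10.9 CPM in vehicle (2.12 ± 0.08), and cytoplasmic gamma actin, Actg1, had 21.1, 17.5 and 18 CPM on day 2, against 3.28, 2.48 and 3.22 CPM in vehicle (2.65 ± 0.13). Day 6 females had 42.1 to 44.7 CPM of Nme2 and 16.8 to 22.2 CPM of Actg1, and day 2 males 11 to 12.7 and 3.38 to 3.47 CPM. The rule counts only pseudogenes named as their gene with the ending -ps, so genes with other pseudogenes can enter. Reads without a unique place were not counted, so the levels of Nme2 and Actg1 are uncertain. Hmx1, a homeobox factor of sensory ganglia, had 7.25, 5.59 and 7.56 CPM on day 2, against 2.38, 1.47 and 1.83 CPM in vehicle (1.84 ± 0.23). Tpt1 was named after its values were seen, having 7 named pseudogenes. It was counted at 10, 10.8 and 14.1 CPM on day 2, against 0.078, 0.0421 and 0.119 CPM in vehicle, with 9.78 to 11.1 CPM in day 6 females and 0 to 0.0978 CPM in day 2 males.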

How the data were processed

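Stranded mRNA libraries from lumbar DRG were sequenced as single-end reads of 50 bases, per the labels' protocols. The authors deposited raw counts per gene symbol, 1 column for each library. The submitters' processing notes name mm9, TopHat2, HTSeq and bcl2fastq, and the annotation and strand setting are not given in the sources used here. The counts were analysed as deposited, without the 5 summary lines of each library. edgeR 4.0.16 in R 4.3.3 was fitted to 15 DRG libraries in 5 groups with TMM size factors and filterByExpr, which left 15577 of 22609 genes, with 10 residual degrees of freedom and quasi-likelihood tests adjusted by the Benjamini-Hochberg method. Day 6 males given paclitaxel were among the 5 groups and had no comparison of their own. Levels are TMM-scaled CPM. The members and gene lists were chosen with earlier results of these data known. The genes named by rule are the 10 largest called rises and falls whose average log2 CPM reached 1, with libraries that do not overlap, no shared exon bases, no named pseudogene and no paw level over 5 times that of DRG, up to 4 called members of each list with the smallest p, and a set of preset genes known in pain; other list members in the text were chosen for their role after their values were seen. The comparisons of day 2 with day 6 females and with males were added after seeing the data, as was the fit with the length and GC trend removed (loess, span 0.3). Alternatives were RLE size factors, no count filter, DESeq2 1.42.0, a replicate block, fewer groups, gene exclusions and leaving out each library. The script was tested on simulated data. Symbols and promoters come from RefSeq on GRCm38.p6, and exon overlaps, transcript lengths and GC content from the GENCODE mouse annotation. No coordinates were converted between builds. Some genes are not reported here.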

Additional observations from a re-analysis of the deposited data

How the results depend on the processing

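Of 15577 genes, the 7758 called on day 2 became 7705 with RLE size factors, 7592 with DESeq2, 6825 with only the 2 groups in the fit, 5644 of 11270 without paw-higher, overlapping and pseudogene-bearing genes, and 6908 with the length and GC trend removed, and they ranged from 6621 to 7707 when single libraries were left out. In day 2 males, 49 calls became 193 with DESeq2 and 84 with the trend removed, and the cause was not tested. The 28 calls between day 2 and day 6 females became 221 with DESeq2, 45 with the trend removed and 11 with a replicate block. Deviations of same-numbered libraries had correlations of 0.354, -0.168 and 0.14, against -0.398 to 0.262 for libraries of different numbers. Deviations were taken from means of 3 libraries, so these values cannot settle whether the numbers mark pairs. The numbers were not taken as pairs, and with the replicate block 7616 genes were called on day 2. The change of Mobp, high in day 2 replicate 2, was 5.11, turned to -0.87 without that library and reached 5.7 without day 2 replicate 1. Leaving out single libraries ended the calls on day 2 of Cry1, Ctss, Myd88 and Tlr4 (day 2 replicate 1), Cry1, Ecel1, Mobp, Myd88 and Slc12a5 (day 2 replicate 2), Cd4, Col6a2, Ecel1 and Gapdh (day 2 replicate 3), and of Cry1, Ctss, Ecel1, Gapdh, Mobp, Myd88, Cd4, Cma1 and Col6a2 in at least 1 of the 3 vehicle omissions. Groups of 3 libraries limit precision, and the library sets limit what any count can be assigned to.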
